A study of Mus musculus with 74 samples.

Results

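Semaphorins, plexins, neuropilins, ephrins, Eph receptors, Slits, Robos and netrins with their receptors are the classical families of axon guidance ligands and receptors, and their mRNAs were followed here in mouse embryonic stem (ES) cells. Members were chosen with earlier results of these data known. They were taken by symbol alone (Sema, Plxn, Nrp1, Nrp2, Efna, Efnb, Epha, Ephb, Slit, Robo, Ntn, Unc5 and Dcc). This gave 70 of the 37620 rows of the count table, for 69 symbols: 20 semaphorins, 9 plexins, 2 neuropilins, 9 ephrin rows, 14 Eph receptors, 3 Slits, 4 Robos, 4 netrins and 5 netrin receptors. Efna5 was listed under 2 identifiers at the same gene, so its reads may have been split between them and its values are uncertain.

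Polyadenylated RNA was sequenced in 35 libraries, all from E14Tg2a ES cells or lines derived from them and grown in serum. In the SunTag cells doxycycline (Dox, 1 µg/ml) switches on, through a Tet promoter, a dead Cas9 and the activator VP64 that it recruits, and a guide RNA brings it to the endogenous Nanog promoter. The 2 parental clones, C1 and C2, were used. The Nanog cells are 1 clone derived from each, and the Nanog/Otx2 cells are 1 further clone picked from each of these after the second guide was added (C1ON3 and C2ON3, written C1 and C2 below), which makes 4 clonal lines. The cells carrying the Nanog guide gave 3 libraries with LIF (the cytokine that sustains self-renewal, 10 ng/ml) and no Dox, 2 with LIF and Dox, 3 without LIF or Dox, and 3 with Dox in the absence of LIF. The cells with guides for both Nanog and Otx2 gave 3, 4, 4 and 4 libraries in the same order. Both LIF withdrawal and Dox lasted 3 days. The 44iN cells, which lack endogenous Nanog and carry a Dox-dependent Nanog transgene, gave 2 libraries with Dox, 2 after 24 h without Dox and 2 after long-term culture without it, all with LIF. Wild-type Tg2a cells in serum with LIF gave 3. The labels do not say which libraries come from separate cultures, so p-values measure the spread between these libraries, which may be partly technical.

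Guidance ligands and receptors act at the cell surface. Semaphorins signal through plexins, the secreted class 3 members mostly with a neuropilin as co-receptor. Ephrins, anchored to the membrane, bind Eph receptor tyrosine kinases on the neighbouring cell and can signal back into their own cell. Slits bind Robo receptors, and netrins bind Dcc and the Unc5 receptors. Besides steering axons, these proteins set cell adhesion, sorting and boundaries in the early embryo, where many are expressed before any neuron exists.

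The promoters of 5 members on which the results turn are shown, 3 that rose without LIF (Epha1, Unc5b and Efnb2) and 2 that fell (Epha4 and Robo4). They are the 250 bases before the start of transcription, from the RefSeq promoter table (GRCm38.p6), each found once and without mismatch in mm9, whose coordinates are given. The table had no entry for Sema6a, Ntn1, Plxna1, Plxna4, Dcc, Efnb3, Sema3b, Sema3f, Slit1 and Unc5d. Members with large changes, such as Sema6a and Ntn1, are therefore not shown. The RefSeq start of Robo4 lies 75 bases inside the gene as the GENCODE annotation used for gene coordinates has it, and that of Efnb2 lies 3 bases before it. Capitals mark matches on either strand to 4 short motifs, the GC box GGGCGG bound by Sp and Klf factors, the bicoid-type site TAATCC bound by Otx2, the octamer ATGCAAAT bound by Oct4, and the Sox core CATTGT.
Epha1, chr6:42323268-42323517, strand minus: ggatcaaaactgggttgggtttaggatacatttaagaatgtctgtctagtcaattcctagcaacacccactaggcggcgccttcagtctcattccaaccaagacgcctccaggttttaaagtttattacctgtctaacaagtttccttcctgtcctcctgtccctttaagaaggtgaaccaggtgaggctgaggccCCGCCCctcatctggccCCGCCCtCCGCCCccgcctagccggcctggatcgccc
Unc5b, chr10:60294330-60294579, strand minus: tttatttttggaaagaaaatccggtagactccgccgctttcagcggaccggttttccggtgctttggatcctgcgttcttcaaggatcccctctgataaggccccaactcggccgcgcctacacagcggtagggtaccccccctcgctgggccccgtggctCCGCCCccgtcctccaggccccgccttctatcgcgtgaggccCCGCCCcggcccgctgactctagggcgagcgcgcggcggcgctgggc
Efnb2, chr8:8661243-8661492, strand minus: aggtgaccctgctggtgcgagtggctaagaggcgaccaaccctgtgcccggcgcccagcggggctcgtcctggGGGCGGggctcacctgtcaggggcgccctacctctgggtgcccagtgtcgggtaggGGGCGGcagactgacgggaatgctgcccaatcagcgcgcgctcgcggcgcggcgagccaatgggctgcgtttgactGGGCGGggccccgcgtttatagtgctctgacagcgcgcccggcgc
Epha4, chr1:77511664-77511913, strand minus: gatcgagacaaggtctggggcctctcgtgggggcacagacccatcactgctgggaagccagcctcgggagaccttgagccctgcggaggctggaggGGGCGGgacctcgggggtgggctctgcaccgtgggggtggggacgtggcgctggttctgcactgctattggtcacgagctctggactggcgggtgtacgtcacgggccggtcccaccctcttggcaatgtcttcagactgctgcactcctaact
Robo4, chr9:37209307-37209556, strand plus: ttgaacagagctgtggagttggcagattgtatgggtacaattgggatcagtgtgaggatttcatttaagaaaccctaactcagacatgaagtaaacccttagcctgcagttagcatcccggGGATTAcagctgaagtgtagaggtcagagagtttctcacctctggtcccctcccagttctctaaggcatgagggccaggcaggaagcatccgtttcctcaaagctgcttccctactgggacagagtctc
All capitals in the first 4 windows are GC boxes, 3 for Epha1, 2 for Unc5b, 3 for Efnb2 and 1 for Epha4. The Robo4 window held a bicoid-type match that starts 129 bases before the RefSeq start and no GC box. RefSeq promoters were found for 59 of the 69 symbols (75 windows), and 53 of these windows held a GC box, which is 70.7% against 32.7% of all 32851 windows of the same length. Their median GC content was 64.4% against 52.4%. The bicoid-type motif stood in 2 member windows (2.67%, against 6.25% of all), the Sox core in 7 (9.33%, against 10.7%) and the octamer in 0 (against 1.60%). Such matches describe letters in a window and do not show binding.

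Estimated counts per library summed to between 6107512 and 92244655, with a median of 29298745. Nanog, the gene targeted by the guide, had 21940.5 to 29487 normalised counts (counts divided by each library's size factor) in the uninduced Nanog libraries with LIF and 75226 to 93813 with Dox. Without LIF it had 2234 to 8484 and, with Dox, 45041 to 55641. In the Nanog/Otx2 libraries without LIF, Otx2 had 3372 to 5148 normalised counts, and 6827 to 7347 with Dox. The sum of 2 general pluripotency genes, Pou5f1 and Sox2, lay at 35889 to 49576 with LIF and 25109.5 to 32867 without in the Nanog libraries. In 44iN cells Nanog stood at 13366 to 18394 with Dox, 706 to 739 after 24 h without it and 228 to 276 after long-term culture. Markers of naive pluripotency (6 of 6 tested) fell when LIF was withdrawn and those of the formative state that follows it (4 of 4 tested in the Nanog libraries) rose. The summed level of the 5 neuronal markers was 9658 to 16234 normalised counts with LIF and 2373 to 2874 without, with Stmn2 and Tubb3 called lower, Elavl3 and Neurod1 not called and Dcx not tested. The 5 neural progenitor markers summed to 176 to 359 with LIF and 1212 to 3716 without, with Nes and Zbtb16 called higher. In bulk RNA, fewer cells of a type and less RNA per cell cannot be told apart.

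With LIF, ES cells already carried several guidance receptors at high levels. Per kilobase of exon, which allows levels of different genes to be compared, the Eph receptor tyrosine kinase Epha4 (chr1:77363760-77511663, mm9) was highest in the uninduced Nanog libraries, at 756 ± 12.4 normalised counts per kb (SD, n = 3). The Eph receptor Epha2 followed at 493 ± 173, and Plxna1, a plexin that works with neuropilins, at 229 ± 59.6. The libraries of these 3 genes did not overlap. The same 3 genes led in wild-type Tg2a cells, with 627 ± 27.2, 354 ± 207 and 202 ± 56.1 per kb (SD, n = 3), the last 2 within each other's spread. Without LIF and Dox the order was another. Epha1 led with 641 ± 157, Unc5b followed with 577 ± 133 and Plxna1 with 558 ± 36.0 (SD, n = 3), and these 3 did not differ beyond their spread.

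The first comparison asks how guidance genes respond when LIF is withdrawn and ES cells are free to differentiate. In the uninduced Nanog libraries 27 of the 60 members tested rose and 10 fell (edgeR's quasi-likelihood test, adjusted p below 0.05 over all genes tested), while 20.2% of all 15624 genes tested rose and 21.3% fell. In the Nanog/Otx2 libraries, a separate set from subclones of the same lines, 28 of 59 rose and 14 fell, against backgrounds of 24.6% and 25.2%. The median member changed by 0.78 and 0.76 on the log2 scale in the 2 sets, and the median of all genes by −0.05 and −0.01. A gene was tested only if it reached 10 normalised counts in every library of some condition, so that members silent in all of them are not in these counts. The members not tested in either set were Sema3a, Epha3, Epha5, Epha6, Plxnb3, Robo2, Unc5c, Ntn5 and Dcc. Sema3g was not tested in the Nanog libraries, and Ntn4 and the second Efna5 identifier were not tested in the Nanog/Otx2 libraries. Of the members that rose, 23 were shared between the sets, which is 85.2% of the Nanog list and 82.1% of the Nanog/Otx2 list. For all genes that rose, the corresponding shares were 74.4% and 61.1%. All 10 that fell in the Nanog libraries also fell in the Nanog/Otx2 libraries, where they made up 71.4% of the list. Of all genes that fell in the Nanog libraries 72.4% did so in the other set, which is 61.3% of its list.

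**Figure D1:**
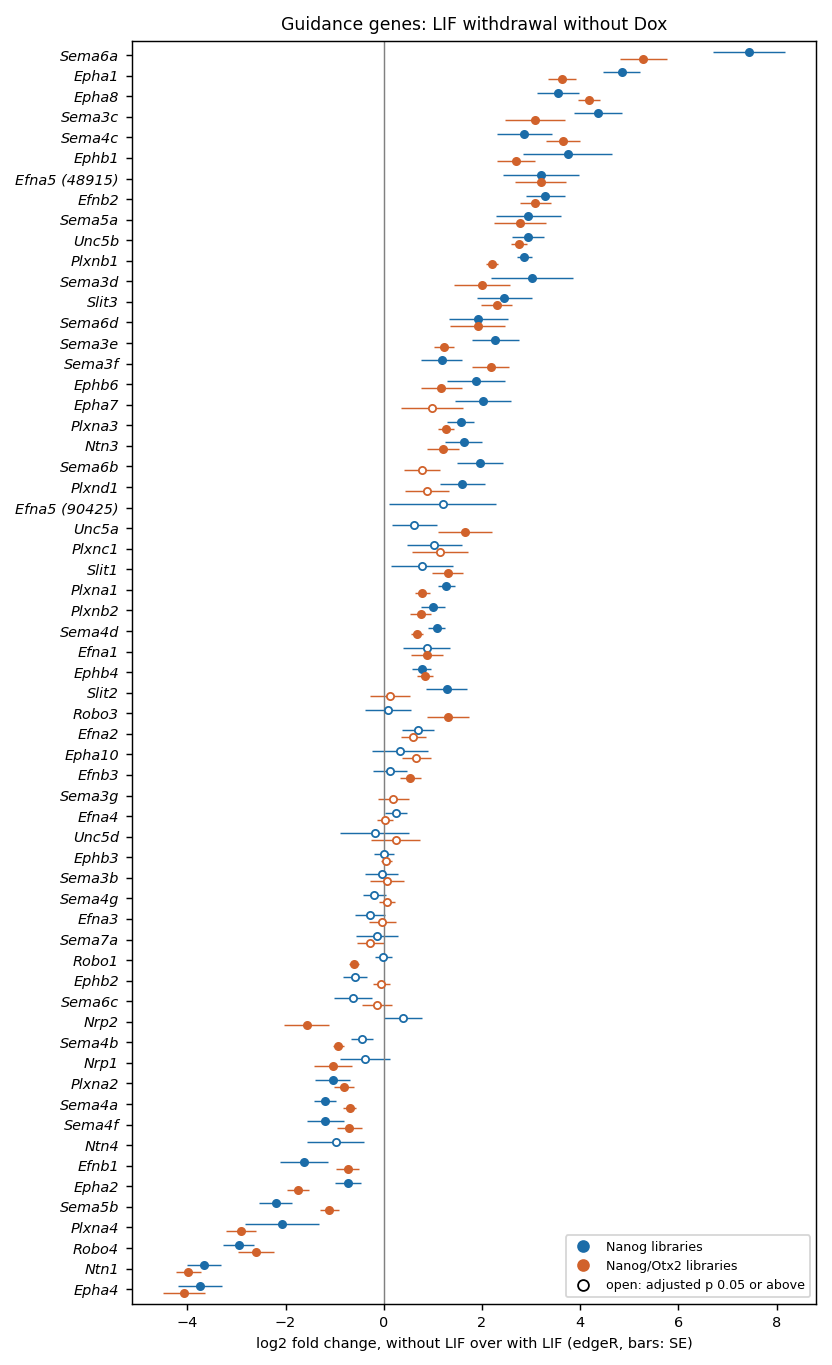
Log2 fold change of every tested guidance gene on LIF withdrawal without Dox (x axis; points, edgeR estimates; bars, SE), with genes on the y axis. Nanog libraries are blue, Nanog/Otx2 libraries orange, and open points did not pass an adjusted p of 0.05. Sema6a stands at the top with 7.45 and 5.28, and Ntn1 and Epha4 at the bottom.

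By family, 10 of 18 semaphorins tested rose in the Nanog libraries and 3 fell. Sema6a, a transmembrane semaphorin that binds plexins A2 and A4, rose most. Its normalised counts were 18.7, 20.1 and 16.2 with LIF and 3769, 2313 and 3576 without. The Nanog/Otx2 libraries had 77.8, 41.4 and 46.3 with LIF and 3137, 2375, 1973 and 1662 without. All 7 libraries without LIF lay far above the 6 with it. The log2 fold changes were 7.45 ± 0.73 (SE), edgeR adjusted p = 2.0e-05, and 5.28 ± 0.48 (SE), edgeR adjusted p = 4.8e-07. Sema3c, a secreted class 3 ligand, went from 21.4, 6.70 and 9.99 to 306, 301 and 138 (log2 4.37 ± 0.49 SE, edgeR adjusted p = 5.1e-05). Sema3c in the Nanog/Otx2 libraries stood at 29.5, 22.7 and 0 with LIF and 372, 211, 96.6 and 82.4 without, with the 2 C1 libraries higher than the 2 C2 libraries within the second group. Sema4c, a ligand of plexin B2, rose by 2.86 ± 0.56 and 3.66 ± 0.34 (log2, SE), in the Nanog/Otx2 set from 59.0, 64.6 and 125 to 726, 766, 1108 and 1163. The semaphorin with the most counts over all libraries, Sema4d, the ligand of plexin B1, rose less, from 602, 473 and 472 to 1057, 1026 and 1226 (log2 1.08 ± 0.18 SE, edgeR adjusted p = 6.2e-04).

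The other semaphorins called higher in both sets were Sema3d, Sema3e, Sema3f, Sema5a and Sema6d, with log2 fold changes between 1.18 and 3.02 in the Nanog libraries. Those that fell in both were Sema4a, Sema4f and Sema5b, all transmembrane. Sema5b had 236, 509.6 and 388 with LIF and 74.9, 71.1 and 103 without (log2 −2.20 ± 0.34 SE, edgeR adjusted p = 4.1e-04). Sema4a went from 383, 406 and 333 to 175, 177 and 143 (log2 −1.20 ± 0.22 SE, edgeR adjusted p = 0.0014). In neither case did the groups overlap. The Sema4f call in the Nanog libraries was lost with no filter on low counts (edgeR adjusted p = 0.060) and without the C2-2 library with LIF and no Dox or the C1-1 or C2-1 library without both (up to 0.086).

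Among the semaphorin receptors, 5 of 8 plexins tested rose and 2 fell in the Nanog libraries. Plxna1 (chr6:89266310-89312607), the plexin with the most counts, had 1443, 2350.1 and 2398 with LIF and 5389, 4961 and 4752 without (log2 1.27 ± 0.18 SE, edgeR adjusted p = 2.1e-04). Plxnb1, the Sema4d receptor, went from 289, 364 and 335 to 2660.1, 2323 and 2275 (log2 2.86 ± 0.15 SE, edgeR adjusted p = 6.8e-07) with the smallest SE of the 60 members. It rose from 519.7, 533 and 518 to 2850.2, 2602, 2365 and 2096 in the Nanog/Otx2 libraries. Plxna2 and Plxna4, the plexins that bind Sema6a, moved the other way. Plxna4 fell from 40.2, 35.7 and 74.1 to 4.35, 6.60, 8.33 and 6.68 in the Nanog/Otx2 libraries (log2 −2.90 ± 0.31 SE, edgeR adjusted p = 2.4e-06). In the Nanog libraries, where it had 40.2, 75.4 and 21.2 with LIF and 6.51, 22.0 and 4.92 without, the groups overlapped (log2 −2.07 ± 0.75 SE, edgeR adjusted p = 0.043). Plxna2 fell from 118, 261 and 217 to 108, 103 and 83.6 (log2 −1.04 ± 0.35 SE, edgeR adjusted p = 0.035) and by 0.80 ± 0.20 (log2, SE) in the Nanog/Otx2 set. With the clone as a block the adjusted p in the Nanog libraries was 0.071 for Plxna2 and 0.061 for Plxna4, so neither call held. Leaving out any of the 6 libraries without LIF or either C2 library with LIF and no Dox also ended the Plxna2 call there, with adjusted p up to 0.13.

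Both neuropilins were called lower in the Nanog/Otx2 libraries and neither in the Nanog libraries. Nrp2, the co-receptor for Sema3f among others, had 1175, 762 and 306 normalised counts with LIF and 119, 151, 428 and 365 without (log2 −1.57 ± 0.46 SE, edgeR adjusted p = 0.011), with overlapping groups and the C1 libraries on the high side with LIF and on the low side without. Without the C1-1 library with LIF and no Dox the edgeR adjusted p was 0.090. Nrp2 in the Nanog libraries had 329, 176 and 236 with LIF and 248, 235 and 505 without (log2 0.40 ± 0.39 SE, edgeR adjusted p = 0.43). Nrp1, the co-receptor for Sema3a, fell by 1.03 ± 0.38 (log2, SE) in the Nanog/Otx2 libraries. That call was lost under DESeq2 (adjusted p = 0.079), with no filter on low counts (edgeR adjusted p = 0.071), and without the C2-1 library with LIF and no Dox (0.098) or the C1-1 or C2-2 library without both (up to 0.079). Whether the 2 sets differ in these responses was not tested.

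Of 9 ephrin rows, 2 rose and 1 fell in the Nanog libraries. Efnb2 (chr8:8617434-8661239), the transmembrane ephrin that pairs with Ephb4, was the ephrin with the most counts. It had 329, 124 and 101 with LIF and 1670.0, 1539.5 and 2171 without (log2 3.29 ± 0.40 SE, edgeR adjusted p = 8.7e-05). The Nanog/Otx2 libraries showed 176, 299 and 111 with LIF and 1149, 1651, 1988 and 2511 without (log2 3.09 ± 0.31 SE, edgeR adjusted p = 1.6e-06). Every library without LIF was above every library with it. Its receptor Ephb4 rose by 0.77 ± 0.20 and 0.83 ± 0.16 (log2, SE). The main Efna5 identifier (ENSMUSG00000048915), a lipid-anchored ephrin, went from 29.5, 5.03 and 3.75 to 119, 123 and 68.8 (log2 3.21 ± 0.77 SE, edgeR adjusted p = 0.0063), while its other identifier did not pass the test. Efnb1, a transmembrane ephrin, was the ephrin that fell, by 1.63 ± 0.49 and 0.73 ± 0.24 (log2, SE).

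Eph receptors changed in opposite directions (6 rose and 2 fell of 11 tested in the Nanog libraries). Epha4, which binds ephrins of both classes, was with Ntn1 the member that fell most. Its counts were 4849, 4804 and 4697 with LIF and 270.3, 315 and 508 without (log2 −3.74 ± 0.45 SE, edgeR adjusted p = 8.1e-05). Those of the Nanog/Otx2 libraries were 3411, 3636 and 5546 with LIF and 136, 166, 314 and 409.6 without (log2 −4.07 ± 0.43 SE, edgeR adjusted p = 2.0e-06). Within each group without LIF and Dox the C2 libraries stood above the C1 libraries, and both stood far below any library with LIF. Epha1 (chr6:42308486-42323267) took the opposite course, from 115, 48.6 and 59.9 to 2253, 1523 and 2515 (log2 4.84 ± 0.38 SE, edgeR adjusted p = 5.1e-06) and from 244, 174 and 102 to 2171, 1807, 3022 and 2397 (log2 3.63 ± 0.28 SE, edgeR adjusted p = 8.2e-08). Epha8 rose from 18.7, 31.8 and 13.7 to 231, 225 and 304 (log2 3.55 ± 0.42 SE, edgeR adjusted p = 7.6e-05), and by 4.19 ± 0.22 in the Nanog/Otx2 set. Epha2 fell from 2625, 3475 and 4578 to 1088, 1502, 748 and 1001 in the Nanog/Otx2 libraries (log2 −1.74 ± 0.23 SE, edgeR adjusted p = 1.8e-05). Epha2 in the Nanog libraries had 1384, 2893 and 2633 with LIF and 1552, 1529 and 1127 without, with overlap, and its call (adjusted p = 0.047) was lost under both other filters, with DESeq2's size factors, and with the clone as a block (edgeR p of 0.088 after adjustment). Ephb1, Ephb4 and Ephb6 rose in both sets, but the Ephb6 call in the Nanog libraries was lost with the clone as a block (edgeR adjusted p = 0.057), and without the C1-1 or C2-2 library with LIF and no Dox or either C1 library without both (up to 0.11).

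Of the secreted ligands, 2 of 3 Slits rose in the Nanog libraries, and of the 3 netrins tested Ntn3 rose and Ntn1 fell. Slit3, the Slit with the most counts, had 10.7, 58.7 and 51.2 with LIF and 334, 155 and 205 without (log2 2.46 ± 0.55 SE, edgeR adjusted p = 0.0044), and rose by 2.30 ± 0.32 in the Nanog/Otx2 set. Ntn1, encoding netrin-1 (chr11:68022866-68214325), went from 428, 282 and 433 to 34.2, 20.7 and 35.6 (log2 −3.66 ± 0.35 SE, edgeR adjusted p = 1.5e-05). The Nanog/Otx2 libraries went from 535, 913 and 588 to 49.5, 44.9, 42.5 and 39.0 (log2 −3.98 ± 0.25 SE, edgeR adjusted p = 1.2e-08). Unc5b (chr10:60225358-60294329), a netrin-1 receptor, moved opposite to its ligand. It had 335, 531 and 442 with LIF and 3394, 2588 and 4148 without (log2 2.93 ± 0.32 SE, edgeR adjusted p = 4.7e-05), then 712, 689.7 and 805 with LIF and 6045, 4549, 5083 and 4465 without in the Nanog/Otx2 set (log2 2.75 ± 0.17 SE, edgeR adjusted p = 1.0e-08). Dcc, the netrin receptor of commissural axons, stayed at 12.1 normalised counts or less in all of these libraries and was not tested there.

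Among the Slit receptors, Robo4 (chr9:37209482-37221608), best known from endothelial cells, fell from 126, 221 and 119.9 to 23.6, 19.4 and 17.2 (log2 −2.95 ± 0.32 SE, edgeR adjusted p = 4.1e-05) and from 86.5, 168 and 208 to 20.7, 11.9, 33.3 and 34.5 (log2 −2.60 ± 0.37 SE, edgeR adjusted p = 4.1e-05). The summed level of the 6 endothelial markers moved with it. It was 2659 to 3306 normalised counts with LIF and 721 to 1234 without in the Nanog libraries, and 2451 to 3224 with LIF and 568 to 1162 without in the other set. Pecam1 and Kdr were called lower in both sets, Cdh5 and Tek in the Nanog/Otx2 set, and Emcn was at 0 throughout. These markers did not always move together. Under Dox without LIF in the Nanog libraries Pecam1 rose (log2 1.66 ± 0.30 SE, edgeR adjusted p = 0.0087), and Cdh5, Kdr and Tek were not called. Whether endothelial cells were present, and what part they had in the result, was not tested. Robo1, the Robo with the most counts, had 1371, 1115 and 1278 with LIF and 1421, 1303 and 1066 without, a log2 fold change of −0.01 ± 0.17 (SE). Robo1 fell in the Nanog/Otx2 libraries, from 1174, 1254 and 1204 to 912, 889, 704 and 753 (log2 −0.60 ± 0.10 SE, edgeR adjusted p = 1.1e-04).

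**Figure D2:**
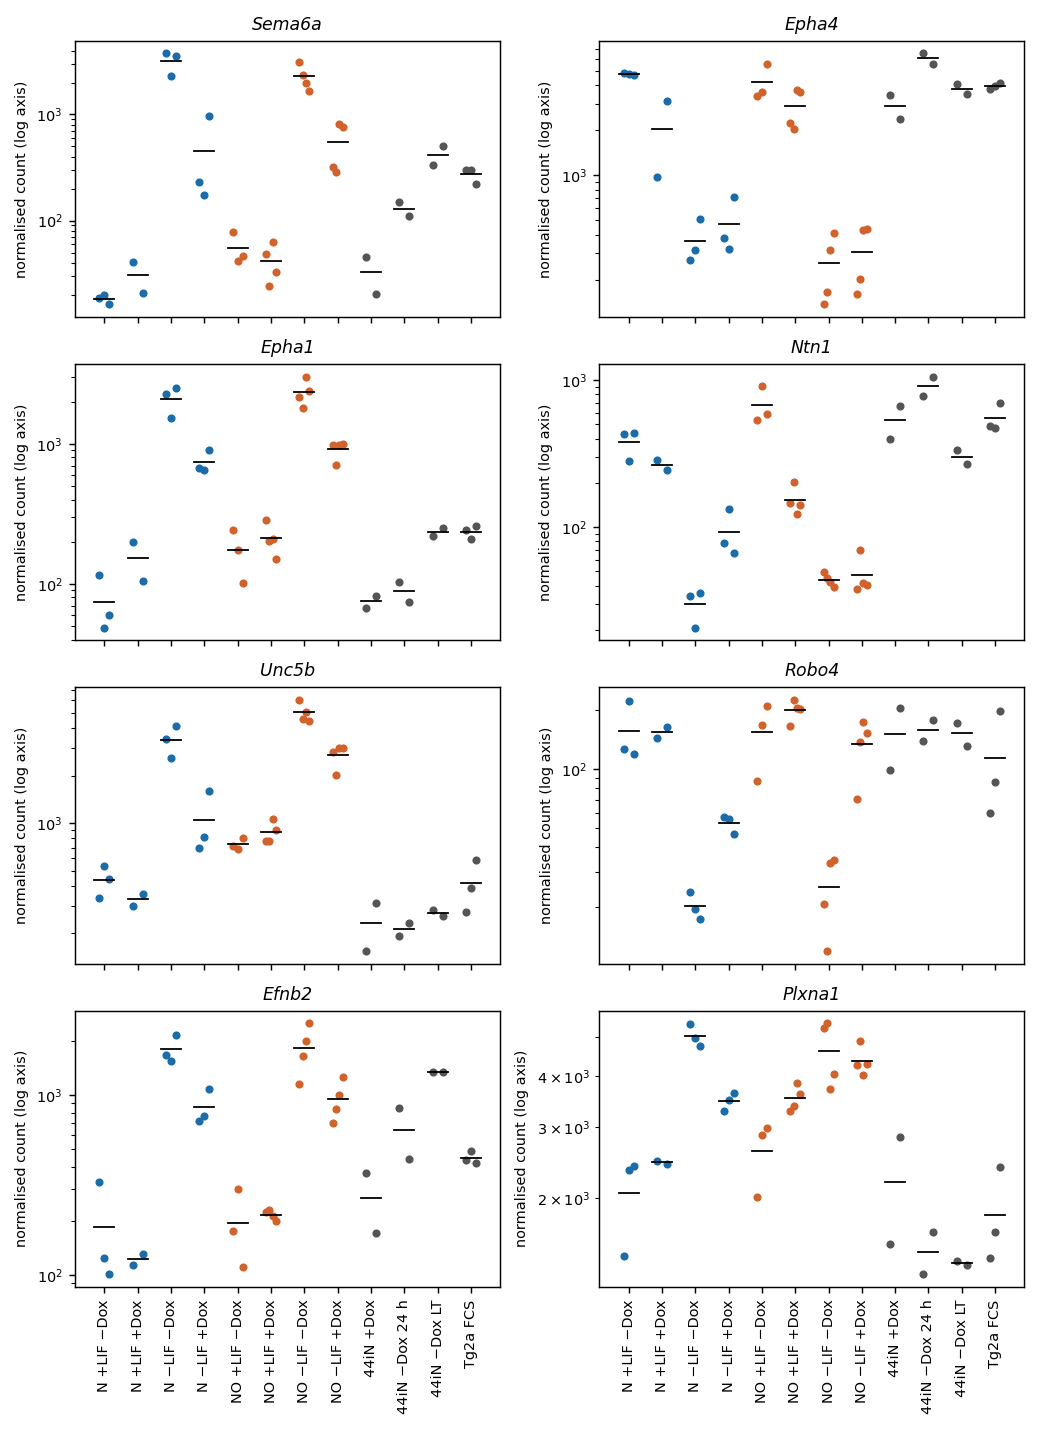
Normalised counts (log axis) of 8 guidance genes in every library (points) with the group mean (line), for 12 groups on the x axis. N and NO are the Nanog and Nanog/Otx2 libraries (blue and orange), and 44iN and Tg2a libraries are grey. Sema6a, Epha1, Unc5b and Efnb2 are highest without LIF and Dox, and Epha4, Ntn1 and Robo4 lowest.

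Other genes of the guidance pathways were followed as a list of 55 rows outside these families, made of further ligands and receptors, adhesion partners and intracellular effectors. In the Nanog libraries 17 of 49 tested rose on LIF withdrawal, 5 fell, 27 were not called and 6 rows were not tested, against 20.2% of all genes higher and 21.3% lower. In the Nanog/Otx2 libraries 22 of 51 rose, 10 fell, 19 were not called and 4 were not tested, against 24.6% and 25.2%. Cxcl12, a chemokine, rose by 6.60 and 5.25 on the log2 scale in the 2 sets, and Trio, an exchange factor downstream of netrin receptors, rose by 3.42 and 2.53.

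A further comparison asks whether Nanog, induced from its own promoter, alters the LIF response. With Dox, LIF withdrawal raised 17 of 60 members and lowered 9 in the Nanog libraries (17.1% and 15.5% of all genes). These counts rest on 2 libraries with LIF and Dox. Without the C1-1 one of them, 15 members were called in place of 26. The largest increases were again Sema6a, from 41.0 and 20.6 to 233, 173 and 957 (log2 3.99 ± 0.75 SE, edgeR adjusted p = 0.0028), and the plexin D1 ligand Sema3e, from 97.0 and 99.6 to 701, 892 and 591 (log2 2.91 ± 0.57 SE, edgeR adjusted p = 0.0035). Efnb2 rose from 114 and 132 to 723, 768 and 1079 (log2 2.82 ± 0.46 SE, edgeR adjusted p = 0.0013). Epha1 rose by 2.33 ± 0.39 and Sema3c by 2.24 ± 0.48 (log2, SE). Sema5a, with 14.9 and 35.9 with LIF and 206, 129 and 106 without, rose by 2.49 ± 0.74, a call lost without the C1-1 library with LIF and Dox (adjusted p = 0.15) or the C1-1 library with Dox and no LIF (adjusted p = 0.066).

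Among the decreases with Dox, Epha4 had 979 and 3132 with LIF and 381, 321 and 718 without (log2 −2.10 ± 0.45 SE, edgeR adjusted p = 0.0052), and lost its call without the C2-1 library with LIF and Dox (adjusted p = 0.10). Sema3b, a secreted class 3 ligand, fell from 93.3 and 88.8 to 24.2, 22.3 and 19.9 (edgeR adjusted p = 0.0019), whereas without Dox it had 50.9, 41.9 and 27.5 with LIF and 46.4, 36.2 and 33.2 without. Robo4 and Ntn1 fell by 1.50 ± 0.32 and 1.49 ± 0.34 (log2, SE). Sema4f, with 74.6 and 113 with LIF and 28.8, 32.6 and 38.0 without, fell by 1.49 ± 0.38, not called without the C2-1 library with LIF and Dox (adjusted p = 0.091). Sema4a fell by 1.41 ± 0.24. Markers of other cell types moved in this comparison too. The extraembryonic endoderm markers Gata6, Gata4, Sox17 and Sox7 were called lower, and Dab2 was not called. Endothelial Cdh5 and Kdr, fibroblast Thy1 and Pdgfrb and neuronal Stmn2 were also called lower, and the neural progenitor marker Nes higher. What part these changes had in the result was not tested.

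Compared directly in the absence of LIF, Dox lowered 5 of 60 members in the Nanog libraries and raised 3, against 1.54% and 3.60% of all genes tested. Sema6a fell from the counts given above (3769, 2313 and 3576) to 233, 173 and 957 (log2 −2.80 ± 0.54 SE, edgeR adjusted p = 0.012), which remained above every library of the set with LIF. Unc5b fell from 3394, 2588 and 4148 to 698, 820.4 and 1602 (log2 −1.67 ± 0.31 SE, edgeR adjusted p = 0.0093). Epha1 fell from 2253, 1523 and 2515 to 670.2, 646 and 899 (log2 −1.48 ± 0.32 SE, edgeR adjusted p = 0.02) and Epha8 from 231, 225 and 304 to 76.5, 65.2 and 92.2 (log2 −1.67 ± 0.36 SE, edgeR adjusted p = 0.022). Plxnb1 fell from 2660.1, 2323 and 2275 to 1264, 1505 and 1418 (log2 −0.77 ± 0.14 SE, edgeR adjusted p = 0.01). In all 5 the groups did not overlap. The members that rose were Ntn1, from 34.2, 20.7 and 35.6 to 78.1, 134 and 66.9 (log2 1.63 ± 0.33 SE, edgeR adjusted p = 0.016), Robo4, from 23.6, 19.4 and 17.2 to 57.2, 55.7 and 47.0 (log2 1.42 ± 0.31 SE, edgeR adjusted p = 0.022), and the netrin receptor Unc5d, from 8.14, 10.3 and 3.69 to 43.5, 42.0 and 26.2 (log2 2.34 ± 0.60 SE, edgeR adjusted p = 0.044). For Epha4, the gene that fell most without LIF, Dox gave 381, 321 and 718 against 270.3, 315 and 508, a log2 difference of 0.41 ± 0.41 (SE) that did not pass the test.

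The number of calls depended on single libraries and on the fit. It was 1 (Unc5b or Ntn1) without the C1-1 library of either group, 4 without the C1-2 or the C2-1 library without LIF and Dox, and 3 without the C1-1b library with Dox. Over these fits the 7 members named with their values other than Unc5d lost their calls in 1 (Unc5b) to 5 (Robo4 and Epha8) cases, with edgeR adjusted p up to 0.11. It was 18 (5 higher and 13 lower) when the libraries without LIF were fitted alone, a fit whose share of all genes is not given here. All 8 members called here remained among the 18, the 12 called by DESeq2 and the 11 called with the clone as a block. With edgeR's own filter 7 were called, without Unc5d (adjusted p = 0.058), and leaving out any of the 6 libraries without LIF ended the Unc5d call too (edgeR adjusted p up to 0.17). In the list of other guidance genes 2 of 49 rose and 4 fell. In the same comparison 6 of 6 naive markers rose, among them Nanog, the target of the guide. Formative markers fell in 3 of 4 cases, with sums of 71205 to 84585 normalised counts without Dox and 32965 to 36848 with it. The neural progenitor marker Nes (log2 −1.80) and the mesendoderm marker Mixl1 (−1.70) were called lower. Neuronal Stmn2 (1.44) and endothelial Pecam1 (1.66) were called higher, and other tested cell type markers were not called. The part of these marker changes in the result was not tested.

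**Figure D3:**
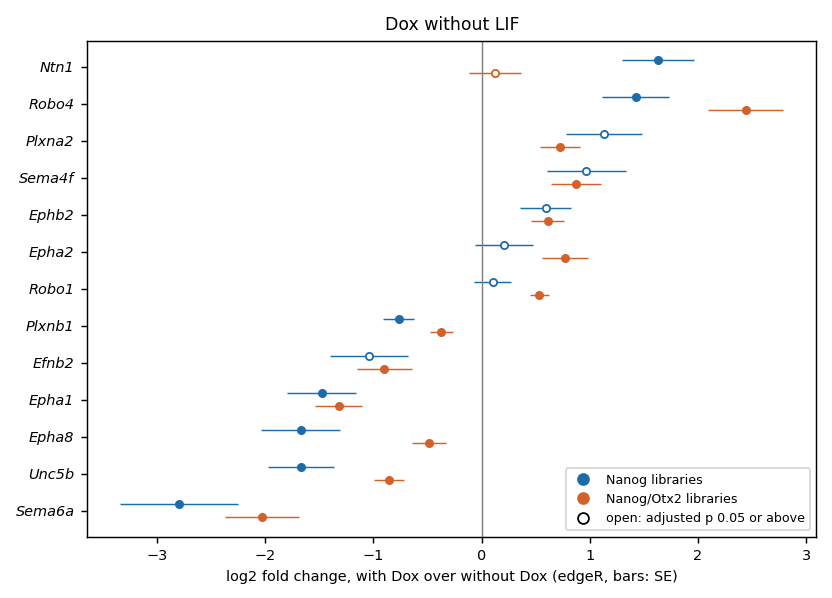
Log2 fold change with Dox over without Dox in the absence of LIF (x axis; points, edgeR estimates; bars, SE) for the 13 members described by the naming rule, in Nanog (blue) and Nanog/Otx2 (orange) libraries; open points did not pass an adjusted p of 0.05. Sema6a, Unc5b, Epha8, Epha1, Efnb2 and Plxnb1 lie to the left of 0 in both sets.

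When Otx2 was induced together with Nanog in the absence of LIF, 10 of 59 members rose and 6 fell, against 11.2% and 6.15% of all genes. The 6 that fell were Sema6a, Epha1, Efnb2, Unc5b, Epha8 and Plxnb1. Sema6a went from 3137, 2375, 1973 and 1662 to 319, 289.5, 813 and 759.5 (log2 −2.03 ± 0.34 SE, edgeR adjusted p = 9.9e-04), with the C1 libraries below the C2 libraries after Dox. Epha1 fell from 2171, 1807, 3022 and 2397 to 975, 709, 983 and 994 (log2 −1.32 ± 0.22 SE, edgeR adjusted p = 8.3e-04) and Unc5b from 6045, 4549, 5083 and 4465 to 2829, 2023, 2994 and 3006 (log2 −0.85 ± 0.14 SE, edgeR adjusted p = 7.8e-04). Efnb2, with 698, 843, 999.7 and 1265 under Dox, fell by 0.90 ± 0.25 (log2, SE) although its groups overlapped. Leaving out the C2-1 or C2-2 library without Dox, or the C1-1 or C1-2 library with it, ended that call (edgeR adjusted p up to 0.082). Its change of −1.04 ± 0.36 in the Nanog libraries was not called. Epha8 fell from 413, 448, 475 and 379.5 to 352, 269.7, 289 and 284 (log2 −0.48 ± 0.16 SE, edgeR adjusted p = 0.049), a call that held only without the C1-1 or C2-1 library with LIF and no Dox, the C1-1 or C2-2 library with both, or the C1-1 library with Dox and no LIF (adjusted p up to 0.13 otherwise). Plxnb1 fell by 0.37 ± 0.11, not called without the C1-1 or C1-2 library lacking Dox or the C1-2 or C2-2 library with it (adjusted p up to 0.082).

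Robo4 rose from 20.7, 11.9, 33.3 and 34.5 to 70.8, 137, 173 and 153 (log2 2.44 ± 0.35 SE, edgeR adjusted p = 2.6e-04), all of them above the highest uninduced library. The endothelial markers summed to 1043 to 1309 normalised counts with Dox, with Pecam1 and Tie1 called higher. All naive markers rose, as did Sox2 and Otx2, a target of the guides, while formative Dnmt3b and Pou3f1 (ENSMUSG00000090125) fell. Neuronal Stmn2 and Tubb3, mesendodermal Eomes and fibroblast Thy1 and Pdgfrb rose. Neuronal Neurod1 and the neural progenitor marker Zbtb16 fell, and other tested markers were not called. What part these marker changes had in the result was not tested. Plxna4 rose from 4.35, 6.60, 8.33 and 6.68 to 28.9, 35.0, 45.7 and 32.9 (log2 2.53 ± 0.29 SE, edgeR adjusted p = 3.6e-05). In the Nanog libraries Plxna4 had 6.51, 22.0 and 4.92 without Dox and 77.3, 74.6 and 51.5 with it (edgeR adjusted p = 0.058, and 0.043 with the clone as a block). Plxna2 rose from 83.6, 99.1, 99.9 and 93.5 to 120.2, 146, 174 and 165 (log2 0.73 ± 0.19 SE, edgeR adjusted p = 0.014), Sema4f from 48.5, 40.9, 22.5 and 25.6 to 75.5, 66.5, 59.6 and 48.0 (log2 0.87 ± 0.23 SE, edgeR adjusted p = 0.019) and Ephb2 from 657, 485, 409 and 366 to 786, 768, 657 and 652 (log2 0.61 ± 0.15 SE, edgeR adjusted p = 0.013). Epha2 had 1719.9, 2154, 1357 and 1975 with Dox (log2 0.77 ± 0.21 SE, edgeR adjusted p = 0.022) and Robo1 1221, 1215, 1156 and 1011 (log2 0.53 ± 0.09 SE, edgeR adjusted p = 9.4e-04). Ntn1, raised by Dox in the Nanog libraries, stood here at 49.5, 44.9, 42.5 and 39.0 without and 38.2, 70.0, 41.9 and 40.1 with Dox (log2 0.13 ± 0.24 SE, edgeR adjusted p = 0.77). Without the C2-1 or the C2-2 library lacking Dox 10 members were called in place of 16, and without the C1-2 library with Dox 9. Each of these 3 ended the calls of Sema4f and Epha2 (edgeR adjusted p up to 0.07), as did the C1-1 library with Dox for Sema4f and the C2-2 library with Dox for Epha2. In the list of other guidance genes 11 of 51 rose and 3 fell.

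Since each set of libraries has its own controls, the members picked by LIF withdrawal in one set can be followed under Dox in the other. Of the 28 members that rose without LIF in the Nanog/Otx2 libraries, 25 had lower values with Dox in the Nanog libraries without LIF and 5 were called lower (17.9%). For all genes chosen in the same way, 85.8% had lower values and 6.09% were called. The median change was −0.60 on the log2 scale for these members and −0.34 for those genes. Of the 14 members that fell, 11 had higher values with Dox (78.6%, against 85.4% of genes chosen in the same way) and 2 were called (14.3%, against 12.5%). In the opposite direction, of the 27 members that rose without LIF in the Nanog libraries 22 had lower values with Dox in the Nanog/Otx2 libraries (81.5%, against 73.4% of all such genes) and 6 were called (22.2%, against 16.4%). All 10 that fell had higher values there (against 74.9% of all such genes) and 5 were called (50.0%, against 28.7%). The 2 sets share their parental clones.

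Whether the effect of Dox depended on LIF was tested as a difference of differences in the Nanog libraries. This called 3 of 60 members (1.93% of all genes). The Dox effect without LIF minus that with LIF was −2.51 ± 0.50 (SE), edgeR adjusted p = 0.03, for Epha1, where Dox gave 199.6 and 104 with LIF against 115, 48.6 and 59.9 without Dox. It was 2.17 ± 0.48 (SE), edgeR adjusted p = 0.044, for Ntn1, and −0.95 ± 0.22 (SE), edgeR adjusted p = 0.049, for Plxnb1. With the clone as a block 10 members were called, 7 more (Epha4, Epha8, Sema3b, Sema3c, Sema4c, Sema6a and Unc5b), and DESeq2 called 9. The Plxnb1 call was lost with no filter on low counts and with edgeR's own filter. Without any 1 library other than the C1-1 library with LIF and no Dox or the C2-2 library with Dox and no LIF, the count was 0 or 1. Whether the Dox response without LIF differed between the guides was tested across both sets. None of the 61 members passed (0.0308% of all 16210 genes did), and DESeq2 called 1, Epha8. At an unadjusted p below 0.05 there were 8 members and 923 of all genes.

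With LIF present the difference between the guides was not tested. In the Nanog libraries Dox called none of 60 members (0.563% of all genes). At an unadjusted p below 0.05 there were 10 members and 2227 of all 15624 genes. DESeq2 called Epha2 and the fit with the clone as a block Sema3c. With both guides, 20 of 59 members rose and 4 fell, against 12.9% and 10.0% of all genes. Markers of other cell types moved in the same comparison. The 4 fibroblast markers (Col1a1, Col1a2, Thy1 and Pdgfrb) all rose, with sums of 289 to 481 normalised counts without Dox and 911 to 1143 with it. Of 4 neural crest markers Sox10, Snai2 and Ets1 rose (sums of 97.9 to 189.8 and 239.7 to 293). Of 5 endothelial markers tested Cdh5 and Tie1 rose (sums of 2451 to 3224 and 2573 to 2944), and of 4 neuronal markers tested 3 fell. The neural progenitor marker Pax6 fell (log2 −1.87), and the mesendoderm marker Eomes and the trophoblast marker Krt7 rose (1.19 and 1.25). Other tested markers of these types were not called, nor was any of extraembryonic endoderm. The part of all these marker changes in the result was not tested. With the clone as a block 37 members were called in place of 24, with the share of all genes in that fit not given here. Epha8 rose from 26.8, 23.2 and 9.26 to 105, 81.4, 88.0 and 72.3 (log2 1.93 ± 0.22 SE, edgeR adjusted p = 7.1e-05) and the Nrp2 ligand Sema3f from 27.5, 34.6 and 92.6 to 135, 128, 172 and 170.0 (log2 1.86 ± 0.38 SE, edgeR adjusted p = 0.0034). Sema4c rose from 59.0, 64.6 and 125 to 141, 131, 244 and 239 (log2 1.41 ± 0.33 SE, edgeR adjusted p = 0.0074) and Ephb2 from 517, 430.2 and 518 to 1246, 1072, 1248 and 1062 (log2 1.27 ± 0.17 SE, edgeR adjusted p = 2.4e-04). Unc5a, a netrin receptor, had 12.1, 13.6 and 32.4 without Dox and 77.3, 49.7, 51.5 and 42.7 with it (log2 1.82 ± 0.56 SE, edgeR adjusted p = 0.03), and Plxnd1, the Sema3e receptor, 48.3, 35.7 and 23.1 without and 145, 99.5, 119.8 and 78.4 with Dox (log2 1.54 ± 0.45 SE, edgeR adjusted p = 0.024). Sema6d, with log2 2.77 ± 0.54, and Unc5d, with 2.43 ± 0.47, changed more but from low levels. In the list of other guidance genes 25 of 51 rose and 2 fell.

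Ntn1 fell most with Dox and LIF, from 535, 913 and 588 to 145, 204, 124 and 140.4 (log2 −2.15 ± 0.23 SE, edgeR adjusted p = 5.0e-05), and in the Nanog libraries it had 428, 282 and 433 without Dox and 285 and 246 with it. Sema4b, a transmembrane semaphorin, fell from 1164, 1182 and 1042 to 784, 674, 668 and 640.1 (log2 −0.70 ± 0.11 SE, edgeR adjusted p = 4.7e-04). Nrp2 went to 398, 393, 214 and 171 (log2 −1.38 ± 0.46 SE, edgeR adjusted p = 0.044) and Sema3e from 388, 302 and 236 to 259, 164, 161 and 162 (log2 −0.74 ± 0.21 SE, edgeR adjusted p = 0.018), both with overlapping groups. Without the C1-1 or the C1-2 library with LIF and no Dox 13 members were called, and without the C2-1 library with LIF and Dox 15. Each of these 3 ended the calls of Nrp2 (edgeR adjusted p up to 0.24) and Sema3e (up to 0.12), and the Nrp2 call was also lost without the C2-2 library with both or the C1-2, C2-1 or C2-2 library with Dox and no LIF. The calls of Sema4c, Unc5a and Plxnd1 were lost without the C1-2 library with LIF and no Dox and 1 to 3 others (adjusted p up to 0.14). For Sema6a, Efnb2 and Unc5b, Dox with LIF made changes of −0.42 ± 0.47, 0.06 ± 0.30 and 0.28 ± 0.16 (log2, SE), none called.

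**Figure D4:**
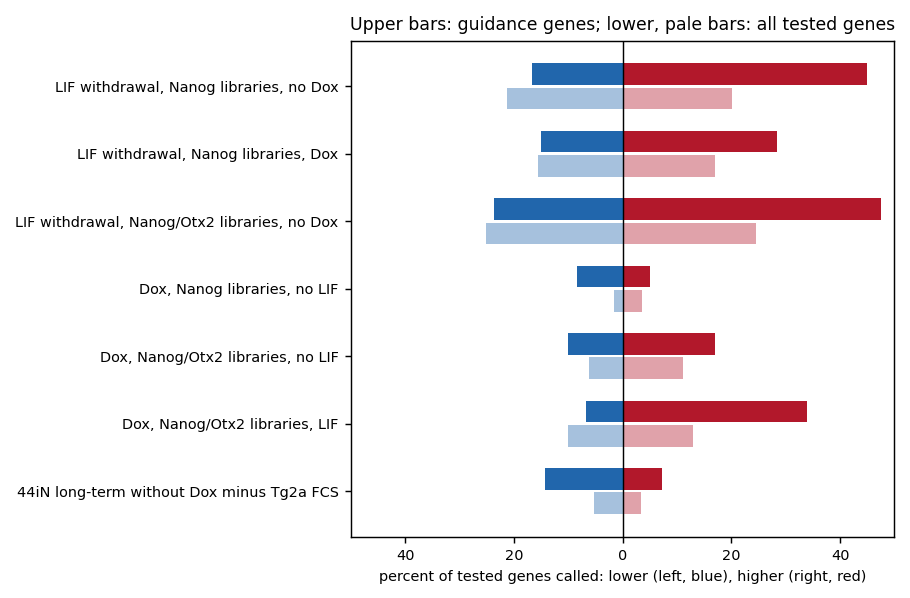
Percent of tested genes called higher (right, red) or lower (left, blue) at an edgeR adjusted p below 0.05 in 7 comparisons, for guidance genes (upper, dark bars) and all genes (lower, pale bars). The longest bars are those of members that rose on LIF withdrawal, 27 of 60 and 28 of 59.

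The loss of Nanog was followed in 44iN cells. With Dox against 24 h without it, no member of 49 was called, and no gene of 14376 (0%), in this comparison of 2 against 2 libraries. Nanog itself, higher with Dox by log2 4.56 ± 0.30 (SE), was not called either (edgeR adjusted p = 0.090). The absence of calls therefore does not show that members were unchanged. At an unadjusted p below 0.05 there were 7 members and 1023 genes, and DESeq2 called 1 member, Sema3d. With no filter on low counts 3 were called, Sema3d, Sema5b and Sema6a. The number of calls varied when 1 library was left out. Such a fit leaves 1 library in its group and is not read as a result about the members. The cells with Dox had 45.6 and 20.2 Sema6a counts and those without 149 and 109 (log2 −1.86 ± 0.55 SE, edgeR adjusted p = 0.51). Epha4 had 3448 and 2370.1 against 6571 and 5564 (log2 −0.97 ± 0.25 SE, edgeR adjusted p = 0.44), and Efnb2 369 and 171 against 845 and 441 (log2 −1.16 ± 0.49 SE, edgeR adjusted p = 0.73).

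After long-term culture without Nanog, 4 of 56 members were higher than in wild-type Tg2a cells and 8 lower (3.35% and 5.26% of all genes). Cell line and Nanog status cannot be told apart here, and the paper kept the long-term null cells under G418 selection. In the same comparison 5 of 6 naive markers were lower, among them Nanog, the gene lost in these cells. Formative markers were higher in 2 of 4 cases. Of markers of other cell types, the fibroblast genes Col1a1 and Col1a2, the mesendoderm gene T and the neuronal gene Neurod1 were called lower and the trophoblast gene Gata3 higher. The 4 fibroblast markers summed to 106 to 117 normalised counts in null and 172 to 565 in Tg2a cells, and the part of such cells in the result was not tested. Sema5b had the largest fall, to 16.3 and 9.53 against 86.6, 75.8 and 176 (log2 −3.18 ± 0.50 SE, edgeR adjusted p = 0.012). Plxna2 had 56.1 and 66.7 against 228, 182 and 177 (log2 −1.75 ± 0.29 SE, edgeR adjusted p = 0.013) and Ephb2 97.8 and 80.4 against 181, 192 and 300.0 (log2 −1.40 ± 0.31 SE, edgeR adjusted p = 0.034). The main Efna5 identifier had 41.7 and 43.6 against 80.7, 138 and 108 (log2 −1.43 ± 0.34 SE, edgeR adjusted p = 0.039). Ntn1 stood at 336 and 267 against 490.2, 474 and 702 (log2 −0.96 ± 0.24 SE, edgeR adjusted p = 0.049) and Robo1 at 1091 and 921 against 1705, 1536 and 1409 (log2 −0.70 ± 0.16 SE, edgeR adjusted p = 0.038). Ntn4 and Epha10 were lower as well, by 2.52 ± 0.54 and 2.19 ± 0.40 (log2, SE) from low counts. Efnb2 was higher, at 1349.8 and 1342 against 435, 490.3 and 418 (log2 1.51 ± 0.17 SE, edgeR adjusted p = 0.004), as were Nrp2, at 1195 and 1113 against 599, 706 and 478 (log2 0.88 ± 0.20 SE, edgeR adjusted p = 0.037), and Dcc, at 135 and 72.2 against 36.6, 39.4 and 21.8 (log2 1.60 ± 0.40 SE, edgeR adjusted p = 0.046). Sema3a, the classical Nrp1 ligand, was higher by 2.21 ± 0.46 from low counts.

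The groups did not overlap for any of the 12 members called, but the calls rest on 2 null libraries of 1 line. With DESeq2's size factors the Ntn1 call was lost, and with edgeR's own filter those of Ntn1 and Dcc. No call held when either null library was left out, which leaves 1 library in that group. Leaving out Tg2a replicate 2 left 2 calls. The same line with Dox, in a comparison not tested here, had 369 and 171 Efnb2 counts, 694 and 419.9 for Nrp2, 29.7 and 21.8 for Dcc, 84.2 and 305 for Sema5b, 1746 and 1703 for Robo1 and 396 and 670.3 for Ntn1, and for the main Efna5 identifier 39.6 and 15.6. For the first 6 of these the mean was nearer to that of Tg2a cells than to that of null cells. The mean for Efna5 was nearer to that of null cells. Plxna2 and Ephb2 averaged 153 ± 21.2 and 318 ± 162 in that line with Dox (SD, n = 2), also nearer to Tg2a cells. Ntn4, Epha10 and Sema3a, at low counts, were not compared. Of the members that moved most on LIF withdrawal, Epha4 had 4083 and 3507 against 3791, 3982 and 4134 (log2 −0.14 ± 0.14, SE), Epha1 220.5 and 252 against 241, 208 and 259.8 (−0.08 ± 0.23) and Sema6a 332 and 503 against 301, 299 and 219 (0.53 ± 0.27), and none of these passed the test. In the list of other guidance genes 11 of 44 were lower and 0 higher.

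**Figure D5:**
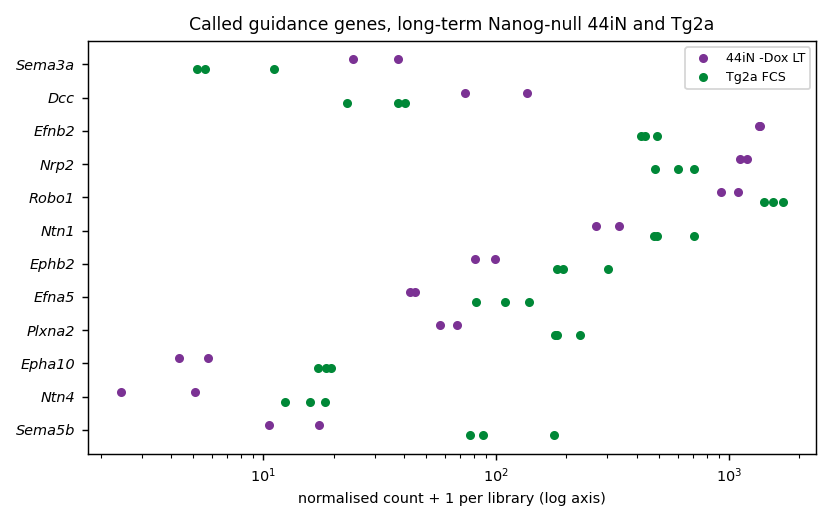
Normalised count plus 1 (log axis) in each library for the 12 guidance genes called between long-term Nanog-null 44iN cells (purple, 2 libraries) and wild-type Tg2a cells (green, 3 libraries). Sema5b shows the widest gap, and Efnb2, Nrp2, Dcc and Sema3a are the genes on the higher side in null cells.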

How the data were processed

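mRNA libraries were made with a stranded poly(A) kit and read as single-end reads. Per the labels and the study's methods, the authors aligned reads with STAR to mm9 and estimated counts per gene with RSEM (versions not given in the sources used here). The deposited values used were these expected counts, with no normalization, and a deposited table of counts divided by DESeq2 size factors, which is the normalised signal printed per library. The ChIP and ATAC libraries with their tracks and peaks, and 3 Tg2a samples from 2i medium, were not used here.

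Expected counts were rounded and tested with edgeR 4.0.16 (glmQLFit and glmQLFTest, TMM factors) in R 4.3.3. One model was fitted for the 11 Nanog libraries, one for the 15 Nanog/Otx2 libraries, one for all 26, one for 4 44iN libraries, and one for the long-term null and Tg2a libraries. Genes were kept if all libraries of some condition reached 10 normalised counts. P-values were adjusted by Benjamini-Hochberg over all genes tested and called below 0.05. The SE is the log2 fold change divided by the square root of F. Counts per kb divide by the union of a gene's exons in the GENCODE annotation of mm9. Replicate pairs differed well beyond counting error (median ratio of chi-square to its expectation 5.23 to 79.9), and each library counted once. Such spread does not show that libraries come from separate cultures. C1-1 and C1-1b, with Dox and no LIF in the Nanog set, carry the same sample title, though their count columns are numbered differently. SunTag libraries marked C1 or C2 share a clone within each set, so the clone was a valid block. Their deviations correlated at 0.148 on average within a clone and −0.143 between clones in the Nanog set, and at 0.229 and −0.230 in the Nanog/Otx2 set. Members described with every library's value are, per comparison, the 6 largest increases and decreases among called members averaging 50 normalised counts or more in their higher group, plus the member with the most counts in each family. Unc5d and Plxna4 under Dox were named after their values were seen. The members and the lists were chosen with earlier results of these data known. Alternatives were DESeq2 1.42.0, its size factors in edgeR, other filters, the clone block, fits of 1 LIF condition, and leaving out each library. Scripts were tested on simulated data. Depth sets the precision of low members, and counting error alone understates the spread.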

Additional observations from a re-analysis of the deposited data

Results flagged for a closer look

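Chance flags about 1 in 20 groups of libraries by the gap between 1 library and the rest, and 5 of 86 gene and group pairs of 4 libraries were flagged. In Nanog/Otx2 libraries with Dox and no LIF, the C1-2 library stood apart for Epha1, at 709 normalised counts against 975 to 994 in the other 3, and for Ntn1, at 70.0 against 38.2 to 41.9. In the same group the C1-1 library was low for Sema4a, at 219.9 against 287 to 301. With LIF and Dox, the C2-2 library was low for Sema3c, at 38.7 against 51.3 to 53.3, and the C1-1 library was high for Sema3e, at 259 against 161 to 164. The other flagged results are the 3 members whose Dox response differed between the presence and absence of LIF in the Nanog libraries by the test of the difference itself. The response without LIF minus that with LIF was 2.17 for Ntn1, −2.51 for Epha1 and −0.95 for Plxnb1 (log2), as described above.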

How the results depend on the processing

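For LIF withdrawal without Dox, the numbers of called members held within 1.5 times under DESeq2, its size factors, other filters and the clone as a block, and leaving out single libraries gave 28 to 37 in the Nanog libraries and 34 to 43 in the Nanog/Otx2 libraries. LIF withdrawal under Dox gave 15 to 28, Dox without LIF 1 to 12 in the Nanog and 9 to 17 in the Nanog/Otx2 libraries, Dox with LIF 0 to 1 and 13 to 24, the difference of the Dox responses 0 to 4, the difference between the guides 0 to 0, 44iN cells 0 to 19 and long-term null cells 0 to 15. For Dox without LIF in the Nanog libraries, fitting that LIF condition alone gave 18 called members in place of 8. For Dox with LIF in the Nanog libraries, DESeq2 gave 1 and the clone as a block 1 in place of 0. For the difference of the Dox responses DESeq2 gave 9 and the block 10 in place of 3, and for Dox with LIF in the Nanog/Otx2 libraries the block gave 37 in place of 24. DESeq2 gave 1 in place of 0 for the difference between the guides and for 44iN cells, where no filter gave 3 and a block on the replicate number 15, among them Sema6a, Epha4 and Efnb2. The 44iN libraries share a number only (correlation of deviations 0.492 within and −0.492 between numbers, from 2 pairs). The block changed no other count by over 1.5 times. In these cases the cause was not tested. The share of all genes called in each alternative fit is not given here. These counts are therefore not read as results about the members. Of 1408 values of single genes under alternatives, 1255 kept their direction and call, 141 kept their direction and lost the call, and 12 changed sign. These were Nrp2 on LIF withdrawal in the Nanog libraries (−0.026 to 0.69 among fits without 1 library, the lowest without the C2-1 library lacking LIF and Dox) and Robo1 there, not called and at −0.01 in the report, with 0.019 by DESeq2, 0.017 with its size factors, 0.043 with no filter, 0.030 with edgeR's own filter, and −0.095 to 0.12 among fits without 1 library. Depth limits the members at a few counts (Sema6d, Unc5d, Efna5, Dcc), whose fold changes depend on the prior count.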

Other observations

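Members called on LIF withdrawal in 1 set of libraries and not in the other are given here with both values, since the difference between the sets was not tested. Epha7, an Eph receptor, had log2 fold changes of 2.03 ± 0.57 and 0.98 ± 0.63 (SE, Nanog and Nanog/Otx2 libraries), Plxnd1 1.60 ± 0.46 and 0.88 ± 0.45, the Robo ligand Slit2 1.28 ± 0.41 and 0.13 ± 0.40 and the transmembrane Sema6b 1.95 ± 0.47 and 0.78 ± 0.36, all called in the Nanog set. Called higher in the Nanog/Otx2 set were the netrin receptor Unc5a (0.62 ± 0.46 and 1.65 ± 0.56), Slit1 (0.78 ± 0.63 and 1.30 ± 0.31), the ephrins Efna1 (0.87 ± 0.48 and 0.87 ± 0.32) and Efnb3 (0.13 ± 0.34 and 0.54 ± 0.21, lost with both other filters), and Robo3 (0.09 ± 0.46 and 1.30 ± 0.43). The neuropilin Nrp1 (−0.38 ± 0.52 and −1.03 ± 0.38) and Sema4b (−0.44 ± 0.22 and −0.92 ± 0.11) were called lower there.

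Robo2, Epha3, Epha5, Epha6, Ntn5, Unc5c and Plxnb3 reached 10 normalised counts in every library of no condition in any model, so that nothing was tested for them.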
